A study of Mus musculus with 10 samples.

Results

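This account follows 9 genes through which liver cells sense, carry, store and release iron: hamp and hamp2 (the mouse hepcidin genes), tfr2 and tfrc (the transferrin receptors), trf (transferrin), fth1 and ftl1 (the ferritin chains), slc40a1 (ferroportin) and cp (ceruloplasmin). They were taken by symbol from the 14812 gene entries of the deposited tables, where all 9 have a row. All 9 passed the minimum of 3 CPM (UMI counts scaled to the same total in every library, a UMI being 1 tagged molecule) for testing. The question was how each gene varied with time of day and with position in the liver lobule, between the portal and the central vein.

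The tables hold 18378 single hepatocytes in 10 libraries. Every library came from the livers of C57BL/6 males of 3 months with free access to regular chow, anaesthetised with ketamine and xylazine before the liver was perfused with collagenase and the hepatocytes were purified on Percoll. The groups are labelled by zeitgeber time (ZT, hours after lights on by convention): 3 libraries at ZT0 (A, B and C), 2 at ZT6 (A and B), 3 at ZT12 (A, B and C) and 2 at ZT18 (A and B). There was no genetic change, treatment or iron challenge, and the labels do not give the number of mice behind a library, so p-values measure the spread between these libraries, which may be technical in part. Libraries held 710 to 2860 cells and 1454623 to 7144803 UMIs.

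Hepatocytes are the body's main source of hepcidin, the peptide hormone that binds the iron exporter ferroportin and causes its loss from the cell surface, so that less iron enters the blood. Hepatocytes raise hepcidin transcription through BMP and SMAD signalling when iron is plentiful and through STAT3 in inflammation, and transferrin receptor 2 is part of the sensing apparatus. Inside the cell, iron regulatory proteins bind hairpins called iron-responsive elements (IREs) when iron is scarce: a hairpin in the 5' untranslated region (UTR) blocks translation of the ferritin and ferroportin messengers, and those in the 3' UTR protect the tfrc messenger from decay. Transcript levels of the ferritins therefore need not follow their protein, whereas that of tfrc is itself under this control.

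The hairpins are shown because they separate the members into those controlled in translation and the one controlled in transcript stability. They were found in the GENCODE M21 transcripts (GRCm38) by a search for the loop CAGTGN closed by 5 paired bases on each side with a bulged C upstream, and each is written 5′ to 3′ on the messenger's strand with the 6 loop bases in capitals. Of 21901 protein-coding genes, 272 (1.24%) held at least 1 match and 1 gene, Tfrc, held at least 3. A match is a description of the sequence. The first 3 lie in 5' UTRs, of Fth1 at chr19:9982733-9982760 (plus strand), Ftl1 at chr7:45459779-45459806 (minus) and Slc40a1 at chr1:45925465-45925492 (minus). The other 4 lie in the 3' UTR of Tfrc, all on the plus strand of chromosome 16, at chr16:32631220-32631247, chr16:32631599-32631626, chr16:32631664-32631691 and chr16:32631711-32631738.
Fth1: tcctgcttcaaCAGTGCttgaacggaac
Ftl1: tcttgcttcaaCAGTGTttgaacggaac
Slc40a1: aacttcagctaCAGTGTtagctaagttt
Tfrc 1: attatcggaagCAGTGCcttccataatt
Tfrc 2: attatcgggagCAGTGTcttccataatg
Tfrc 3: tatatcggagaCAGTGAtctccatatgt
Tfrc 4: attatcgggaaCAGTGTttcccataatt

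The 150 bases before the start site of each hepcidin gene are shown because hamp and hamp2 are near-copies. Hamp2 was called over time and hamp was not, but whether the genes differ from each other over time was not tested. Whether the sequences bear on the levels was not tested either. The sequences are RefSeq's (GRCm38.p6), both on the minus strand of chromosome 7, for Hamp at chr7:30944030-30944179 and for Hamp2 at chr7:30924182-30924331. Capitals mark GGCGCC, the core of the BMP-responsive element known from hepcidin promoters, and TTCNNNGAA, the core of STAT sites; neither overlaps the other.
Hamp: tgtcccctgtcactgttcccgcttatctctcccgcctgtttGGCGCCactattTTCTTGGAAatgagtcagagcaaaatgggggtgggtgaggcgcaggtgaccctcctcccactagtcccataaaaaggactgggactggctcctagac
Hamp2: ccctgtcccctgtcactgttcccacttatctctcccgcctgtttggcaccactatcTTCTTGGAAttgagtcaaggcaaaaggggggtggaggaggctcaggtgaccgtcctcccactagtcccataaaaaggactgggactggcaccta

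Hamp held GGCGCC at -109 from the start site, and the aligned stretch of Hamp2 differed from it by G4A, counted from the first base of the hexamer. Both held TTCNNNGAA, at -97 in Hamp and at -94 in Hamp2. In windows of the same length around 32851 start sites, on both strands, GGCGCC occurred in 11.9% and TTCNNNGAA in 8.3%. The E-box CACGTG, bound by clock proteins and others, occurred in 7.15% of windows and in neither hepcidin window. Over 250 upstream bases the genes were 89.7% identical, and their transcripts 92.4%, so reads of one may have been assigned to the other, and their separate levels are uncertain to that extent.

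Some measurements of whole libraries touch the results. The Chromium sample indices came from column 3 of the index plate for ZT0A and ZT12A, column 7 for ZT0B, ZT6A, ZT6B and ZT12B, column 5 for ZT0C and ZT12C and column 4 for both ZT18 libraries. The labels do not call this a batch, but the groups differ in it as well as in time, and ZT18 cannot be told apart from column 4. All 6 hepatocyte markers were present (35165 to 66913 CPM in sum). The other lists were low. Macrophages hold much of the liver's recycled iron and express slc40a1 and the ferritins strongly. Their 9 markers summed to 0.687 to 24.2 CPM, with the Kupffer cell gene clec4f, csf1r and c1qa at 0 in all cells. Of the others, cd74 reached 18.9 CPM in ZT6A, and lyz2, cd5l and vsig4 reached 4.71, 3.67 and 2.27 CPM in ZT0A. Adgre1 and timd4 reached 0.203 and 0.175 CPM. Why some markers of these lists had no UMI beside others that did was not tested. Endothelial markers summed to 3.44 to 17.2 CPM with clec4g at 0, stellate markers to 3.44 to 16.5 CPM, cholangiocyte markers to 0.773 to 32.5 CPM, lymphocyte markers to at most 0.609 CPM with cd3e, cd79a and nkg7 at 0, and neutrophil markers to at most 7.84 CPM. Of 6 erythroid markers only alas2, the erythroid form of the first enzyme of haem synthesis, had a row, at 67.4 to 107 CPM.

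Hamp and hamp2 were the members called higher in the middle of the lobule, and hamp2 was the one called for a 24-h rhythm. Hamp2 was 7.0-fold higher at ZT6 than at ZT18. Hamp was called in no test between times, and 1 library at ZT0 held far more of it than any other. Between the outer zones, trf, tfrc, slc40a1 and cp were higher near the portal vein and both ferritins near the central vein.

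Hamp2 was measured at 249, 107 and 150 CPM at ZT0 (A, B and C), at 228 and 320 at ZT6, at 122, 94.2 and 94.4 at ZT12 and at 35.2 and 39.3 at ZT18. The ZT18 libraries lay below all 8 others and the ZT6 libraries above those of ZT12, whereas ZT0 overlapped both ZT6 and ZT12. Such a separation was seen in 32.3% of all genes for ZT18 and ZT0, in 40% for ZT18 and ZT12 and in 30.9% for ZT12 and ZT6. Its group means were 169 ± 72.5 CPM (SD, n = 3), 274 ± 64.7 (n = 2), 104 ± 16.2 (n = 3) and 37.3 ± 2.92 (n = 2). A 24-h cosine had a log2 amplitude of 1.46 with its peak at ZT4.83, a 7.57-fold change from peak to trough, at an adjusted p of 0.00414 (edgeR quasi-likelihood F-test, Benjamini-Hochberg over 8908 genes). Hamp2 was the only 1 of 9 members called in this test, against 5.14% of all genes tested. At an unadjusted p under 0.05 there were 3 members, against 20.4%.

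From ZT6 to ZT18 hamp2 fell by 2.81 on the log2 scale (SE 0.40, edgeR adjusted p 0.00167), and the call was made in 20 of 20 alternative settings. None of these had index column as a block, because the ZT6 libraries are all in column 7 and the ZT18 libraries all in column 4. Hamp2 and tfrc were the 2 of 9 members called in this contrast, against 3.79% of all genes, 2.35% higher and 1.45% lower at ZT18. Libraries of ZT18 and ZT6 did not overlap for 62% of all genes, so non-overlap between these pairs is common. The rhythm call for hamp2 was made in 21 of 22 settings and was lost without both ZT18 libraries (adjusted p 0.0966, edgeR). Among the 4 libraries of index column 7, ZT6 minus ZT0 was 1.32 and ZT12 minus ZT6 was -1.51 for hamp2 (log2). ZT18 has no library in that column.

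Hamp had 1794, 195 and 408 CPM in the 3 ZT0 libraries, 461 and 524 at ZT6, 351, 738 and 273 at ZT12, and 382 and 296 at ZT18. ZT0A stood 2.43 times above the next library, ZT12B, while ZT0B was the lowest of all 10, so that the libraries of ZT0 alone spanned 9.19-fold. The group means of 799 ± 868 CPM at ZT0 (n = 3), 492.8 ± 44.5 at ZT6 (n = 2), 454 ± 249 at ZT12 (n = 3) and 339 ± 61.3 at ZT18 (n = 2) did not differ beyond that spread, and each neighbouring pair in this order overlapped. The rhythm test gave an adjusted p of 0.549 and ZT12 minus ZT0 a log2 difference of -0.996 (SE 0.63, adjusted p 0.489, edgeR). Without ZT0A the latter became 0.55 (adjusted p 0.627), with the sign turned. ZT12 minus ZT0 was -2.35 within index column 3, 1.91 within column 7 and -0.58 within column 5.

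Counted per cell, ZT0A also stood above the other libraries. With every cell thinned to 1000 UMIs, 72.5% of 2081 ZT0A cells held a hamp UMI, the median cell 1 and the 90th percentile 5. In the other 9 libraries the median was 0, the 90th percentile 1 or 2, and the share of cells with a hamp UMI 15.2% to 43.2%. Unthinned, the share was 88.4% in ZT0A and 28.3% to 69.2% elsewhere. The tenth of cells with the most hamp held 33.1% of its thinned UMIs in ZT0A and 43.5% to 72.3% in the others. Such a share depends on the mean, which was 1.95 thinned UMIs per cell in ZT0A and 0.187 to 0.694 in the others. The variance over the mean was 2.12 in ZT0A, the highest of all libraries, and 1.13 to 2.08 in the others. The tables hold hepatocytes, and no cell type that should lack hamp was at hand to measure the share that free RNA gives, so these shares do not tell how many cells expressed the gene. Hamp2 was in 17% of thinned ZT0A cells, between the 21.5% of ZT6B and the 3.04% of ZT18A.

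**Figure D1:**
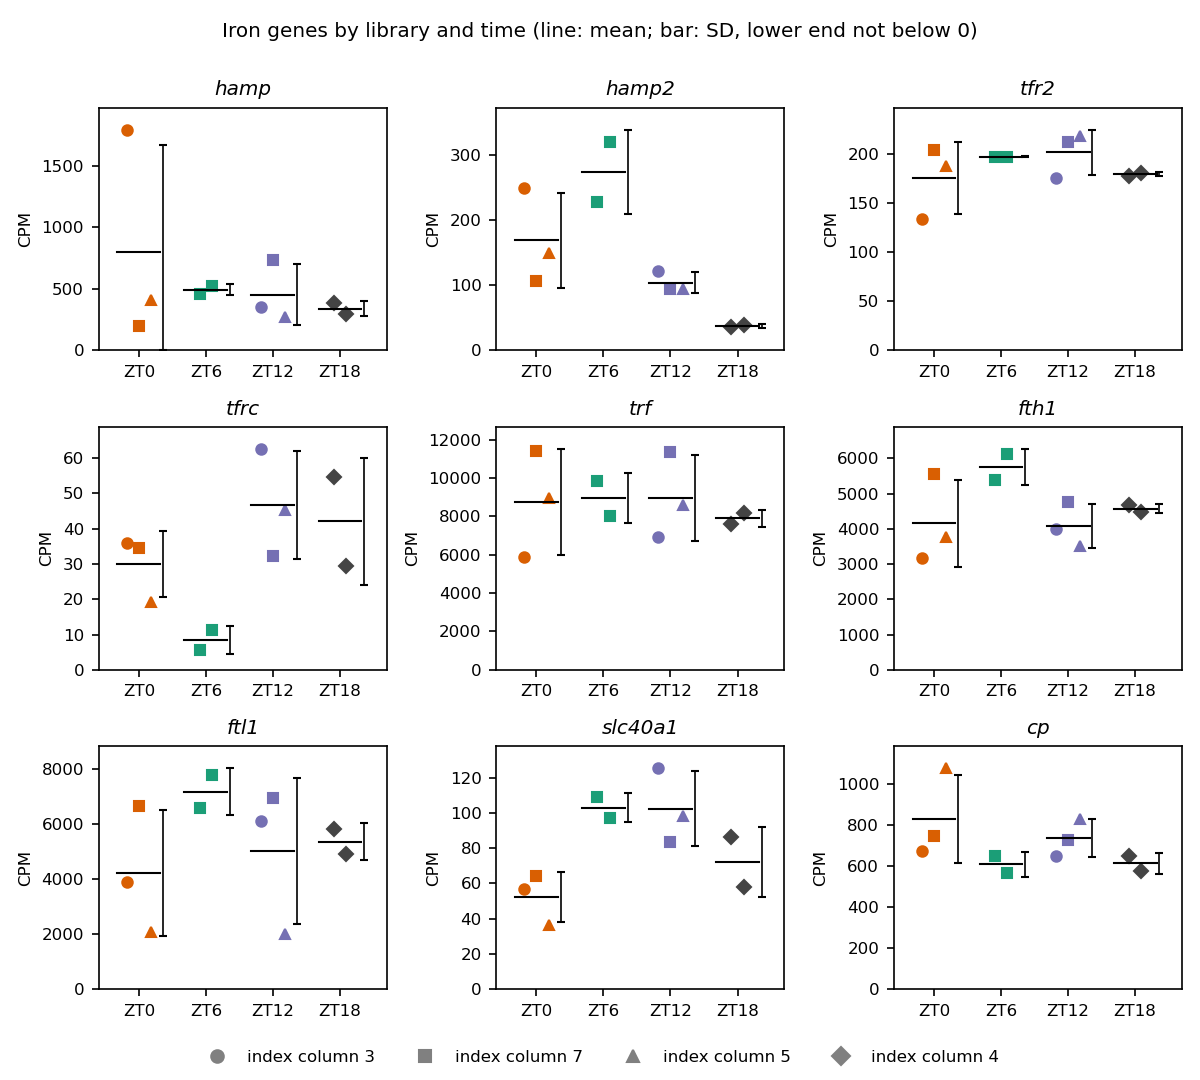
Level of each member (CPM, linear axis from 0) in every library by ZT, with the group mean as a line and the SD as a bar beside it; the shape of a point gives the index column. Hamp2 is lowest in both ZT18 libraries (35.2 and 39.3 CPM), tfrc in both ZT6 libraries (5.69 and 11.2 CPM), ftl1 in ZT0C and ZT12C (2088 and 2011 CPM), and hamp is highest in ZT0A (1794 CPM).

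Position in the lobule was read from 8 periportal and 8 pericentral landmark genes, and the cells of a library were divided by this order into 3 equal zones. In the pericentral, middle and periportal zone, hamp averaged 470, 667 and 506 CPM over the 10 libraries. The middle zone exceeded the mean of the outer zones in 9 of 10 libraries and held the highest level in 7. The difference was 0.50 on the log2 scale (SE 0.12), a 1.41-fold excess, with an adjusted p of 0.022 (edgeR, library as block, over 8894 genes).

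Hamp2 averaged 134, 189 and 113 CPM in the same zones, and its middle zone exceeded the outer mean by 0.56 (SE 0.14, adjusted p 0.037, edgeR), in 8 of 10 libraries. It was highest in the middle zone in 5 libraries and in the pericentral zone in the other 5. Both hepcidin genes, and no other member, were called here, against 0.663% of all genes (0.551% higher in the middle). A middle zone above the outer mean in at least 9 of 10 libraries, as for hamp, was seen in 2.68% of genes. Among the other 7 members the estimate ran from -0.0044 for ftl1 to 0.10 for slc40a1.

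Both middle-zone calls lay close to the threshold. The hamp difference kept its sign and was called in 13 of 21 alternative settings, with adjusted p from 9.06e-21 to 0.143, and that of hamp2 in 13 of 20 (4.3e-18 to 0.162). Leaving out ZT6A, ZT6B, ZT12A or ZT12C in turn ended both calls, with adjusted p of 0.069, 0.0619, 0.0796 and 0.0575 for hamp and 0.107, 0.105, 0.0893 and 0.0557 for hamp2 (edgeR); without ZT0B that of hamp2 was 0.0751.

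The excess was not alike in all libraries. Middle minus outer was 1.31 for hamp in ZT12A, 1.17 in ZT12C, 0.89 in ZT0C and 0.78 in ZT6B, but 0.29 to 0.43 in ZT0A, ZT0B, ZT6A and ZT12B, 0.16 in ZT18B and -0.06 in ZT18A (log2 of CPM + 1). The 4 libraries with the large values belong to index columns 3, 5 and 7 and to 3 of the 4 times. For hamp2 the value ran from 1.47 in ZT0C to -0.50 in ZT18A.

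**Figure D2:**
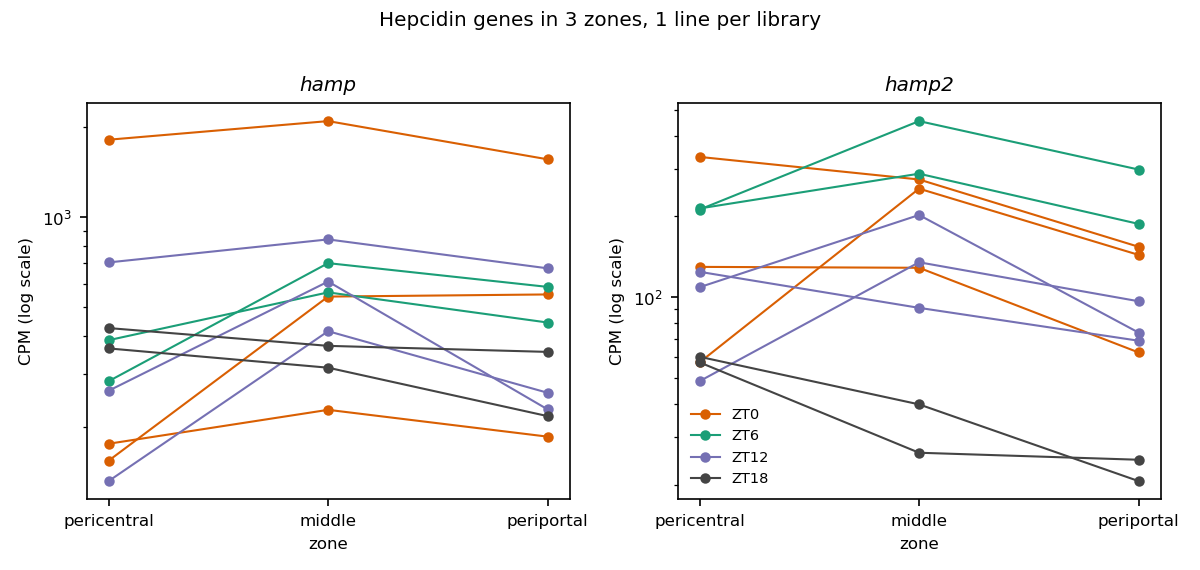
Hamp and hamp2 in the pericentral, middle and periportal zone (CPM, log axis), 1 line per library coloured by ZT. The middle zone of hamp lies above the mean of the outer zones in 9 of 10 libraries, and at ZT18 both genes have their highest level in the pericentral zone.

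In 8 finer layers, numbered from 1 at the pericentral end to 8 at the periportal end, hamp relative to its library mean went from 0.577 ± 0.273 in layer 1 to 1.32 ± 0.398 in layer 5 and was 0.861 ± 0.178 in layer 8 (SD, n = 10 libraries). Its highest layer lay among layers 3 to 6 in 10 of 10 libraries. Hamp2 went from 0.648 ± 0.369 in layer 1 to 1.39 ± 0.405 in layer 3 and 0.603 ± 0.160 in layer 8, with its highest layer among 3 to 6 in 8 libraries and in layer 1 or 2 in the other 2. Hamp2 thus peaked nearer the central vein than hamp on average, within the SD of either profile. These layers are a description without a test.

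Between the outer zones neither hepcidin gene was called. Periportal minus pericentral was 0.30 for hamp (SE 0.14, adjusted p 0.116) and -0.29 for hamp2 (SE 0.17, adjusted p 0.232, edgeR). By CPM without TMM scaling, hamp was higher periportally in 5 libraries and pericentrally in the other 5. The libraries differed widely: hamp was 1.84 higher on the log2 scale in the periportal zone of ZT0C, 1.04 in ZT6B and 0.97 in ZT12C, and -0.75 in ZT18B. The hamp call was made in 6 of 21 settings, among them without both ZT18 libraries (0.49, adjusted p 0.00755).

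At ZT18 both hepcidins were highest in the pericentral zone, but in the finer layers their means peaked in layer 3 and not in layer 1. In layers 1, 3 and 8 hamp averaged 324, 492 and 334 CPM at ZT18, and hamp2 44.3, 73.1 and 19.6 CPM (n = 2). Hamp2 had 57.1, 26.3 and 24.7 CPM from the pericentral to the periportal zone in ZT18A and 59.9, 39.8 and 20.6 in ZT18B. These rest on 56, 27 and 29 UMIs and on 70, 49 and 27 UMIs. The test of whether a rhythm differs among the zones called neither: the adjusted p was 0.702 for hamp and 0.863 for hamp2 (edgeR, 4-df F-test), none of the 9 members passed, and 0.0562% of all genes did. At an unadjusted p under 0.05 there was 1 member (hamp), against 6.07% of genes. DESeq2 called none of the 9 either. Without ZT0C, hamp and hamp2 were called (adjusted p 0.0105 and 0.00138, edgeR), so this call changed with 1 library.

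**Figure D3:**
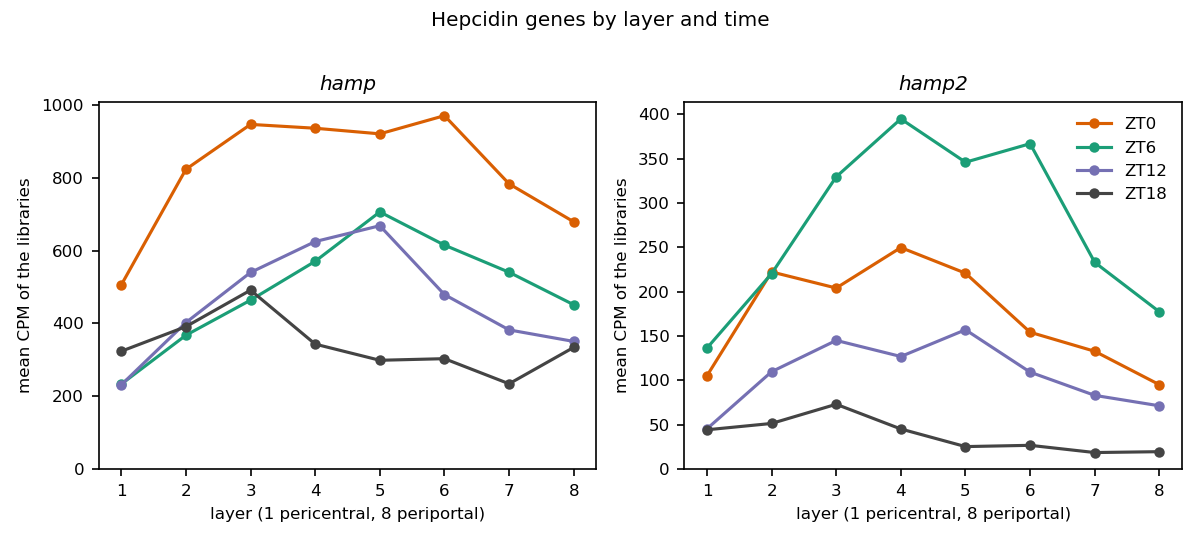
Mean CPM of the libraries of each time in layers 1 (pericentral) to 8 (periportal), for hamp and hamp2. Hamp2 has its highest curve at ZT6 in 7 of 8 layers (in layer 2 ZT0 has 222 CPM and ZT6 220.4) and its lowest at ZT18 in every layer; the hamp curve at ZT0 is raised throughout by ZT0A, whose zones held 1557 to 2089 CPM.

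By the likeness of layer profiles (Pearson r over 80 values, 8 layers in 10 libraries with each library's mean taken out, among 4341 genes of at least 20 CPM), the genes most like hamp were igfbp2 (r = 0.909), wfdc21 (0.871), hamp2 (0.820), bc089597 (0.790) and ccnd1 (0.761). Those most like hamp2 were scd1 (0.826), hamp (0.820), wfdc21 (0.802), ccnd1 (0.775) and igfbp2 (0.772). Igfbp2 encodes an IGF-binding protein, ccnd1 cyclin D1 and scd1 a stearoyl-CoA desaturase. The 8 layers of a library share its landmark order and depth, so these values describe likeness only.

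Over the 10 libraries the order was different. Hamp was most like timm10b (r = 0.935), cstb (0.911), dynlrb1 (0.909), txn1 (0.898) and usmg5 (0.885), and these fell to between 0.616 and 0.818 without ZT0A and ZT0B, the libraries farthest from the median of hamp. Hamp2 was most like pomp (0.948), 1500011k16rik (0.926), mrpl11 (0.914), mt-nd4l (0.906) and fxyd1 (0.903), with 0.766 to 0.863 left without the ZT18 libraries. Hamp and hamp2 had r = 0.471 with each other, and 321st in order of likeness to hamp stood hamp2. Libraries share depth, time and index column, so no test is given.

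Tfr2, which hepatocytes use for sensing transferrin-bound iron, varied least among the members by the ratio of its highest to its lowest library, 1.63. It had 134, 203 and 188 CPM at ZT0, 197 and 197 at ZT6, 175, 212 and 218 at ZT12 and 178 and 181 at ZT18. No time stood apart in these values beyond the spread at ZT0. The rhythm amplitude was 0.05 (adjusted p 0.955), ZT12 minus ZT0 0.07 (SE 0.19) and ZT18 minus ZT6 -0.06 (SE 0.23, edgeR). In the 3 zones tfr2 averaged 186, 191 and 189 CPM, with a periportal minus pericentral difference of 0.11 (SE 0.06, adjusted p 0.126) and a middle difference of 0.04 (SE 0.05, adjusted p 0.897).

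Tfrc is the receptor that takes transferrin-bound iron into cells, and its messenger bears the 3' UTR hairpins. It was called in ZT18 minus ZT6 and between the outer zones. It was measured at 35.95, 34.6 and 19.2 CPM at ZT0, 5.69 and 11.2 at ZT6, 62.6, 32.2 and 45.2 at ZT12 and 54.7 and 29.4 at ZT18. Both ZT6 libraries, with 28 and 29 tfrc UMIs, lay below all 8 others, and the other times overlapped each other. Libraries of ZT6 and ZT0 did not overlap, in either direction, for 32.8% of all genes. The share was 30.9% for ZT12 and ZT6 and 62% for ZT18 and ZT6. Tfrc was 5.44-fold higher at ZT18 than at ZT6 (2.44 on the log2 scale, SE 0.48, adjusted p 0.0146, edgeR).

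The tfrc call was made in 18 of 20 settings and was lost without ZT6A (1.92, adjusted p 0.203) or ZT18A (1.95, adjusted p 0.136). Its rhythm, with an amplitude of 1.12 and a peak at ZT17.3, was not called (adjusted p 0.14, edgeR). It was called without a CPM minimum (0.0439), with index column as a block (0.0126) and without both ZT18 libraries (0.0254). With that block, as without ZT18, the wave rests on ZT0, ZT6 and ZT12 alone, because column 4 holds only ZT18 libraries. A wave can fit the means of these times exactly, so its amplitudes there (2.16 and 2.22) reach beyond the times measured. Within column 7 the ZT6 libraries stood -1.98 log2 units from ZT0, and ZT12 stood 1.88 above ZT6. ZT18 has no library in that column, so no setting of ZT18 minus ZT6 had the column as a block. Red cell precursors express tfrc strongly. Transcripts of 5 haemoglobin entries came to 8.80 and 293 CPM in ZT18A and ZT18B and to 0.338 to 8.32 CPM elsewhere. In cells without a haemoglobin UMI, tfrc stood at 54.2 and 29.2 CPM at ZT18 and at 5.73 and 11.3 CPM at ZT6.

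Across the lobule tfrc averaged 27.5, 32.4 and 39.0 CPM from the pericentral to the periportal zone, a difference of 0.65 (SE 0.12, adjusted p 1.14e-05, edgeR), and was higher periportally in 9 of 10 libraries. The exception was ZT12A, the library with the fewest cells, with 71.8 CPM in the pericentral and 66.7 CPM in the periportal zone. All 21 alternative settings made the call. Of the 9 members, 6 were called between the outer zones, against 27.1% of all genes (13% higher periportally and 14.1% lower). Without TMM scaling the median over all genes moved from -0.008 to -0.105, and of all calls 27.4% in place of 47.9% were higher periportally. Relative to that median tfrc stood at 0.66 under both scalings, and the 6 calls were made under both with the same signs.

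Transferrin, the plasma carrier of iron that hepatocytes secrete, had the largest difference between the outer zones of any member. Trf was measured at 5899, 11409 and 8943 CPM at ZT0, 9866 and 8028 at ZT6, 6926, 11378 and 8597 at ZT12 and 7594 and 8187 at ZT18, with full overlap between times. Its rhythm amplitude was 0.07 (adjusted p 0.965), and ZT12 minus ZT0 was -0.09 (SE 0.31, edgeR), turning to 0.04 without TMM scaling. The 2 libraries of index column 3 were the lowest of their times.

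The zones of trf averaged 6854, 8735 and 10393 CPM, and in 10 of 10 libraries the periportal zone was highest. A gradient of 1 sign in all 10 libraries was seen in 12% of all genes. The difference was 0.70 (SE 0.05), a 1.62-fold excess, at an adjusted p of 1.07e-16 (edgeR). By library it ran from 0.39 in ZT0A to 0.94 in ZT12C. The relative level rose through the 8 layers without a break, and layer 7 or 8 was the highest in every library.

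Ceruloplasmin, a copper-containing ferroxidase secreted by hepatocytes that helps load iron onto transferrin, followed the same direction with a smaller slope. Cp had 673, 745 and 1075 CPM at ZT0, 651 and 566 at ZT6, 648, 729 and 830 at ZT12 and 649 and 578 at ZT18. ZT0C and ZT12C, both of index column 5, were the 2 highest libraries. The ZT6 and ZT18 libraries lay below all of ZT0, and ZT12 overlapped every other time. Separation from ZT0, in 1 direction or the other, was seen in 32.8% of all genes for ZT6 and in 32.3% for ZT18. No time test called it (rhythm adjusted p 0.643, ZT12 minus ZT0 -0.31, SE 0.21). Its zones averaged 649, 714 and 778 CPM, a difference of 0.36 (SE 0.05, adjusted p 3.4e-08, edgeR), higher periportally in 10 of 10 libraries.

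**Figure D4:**
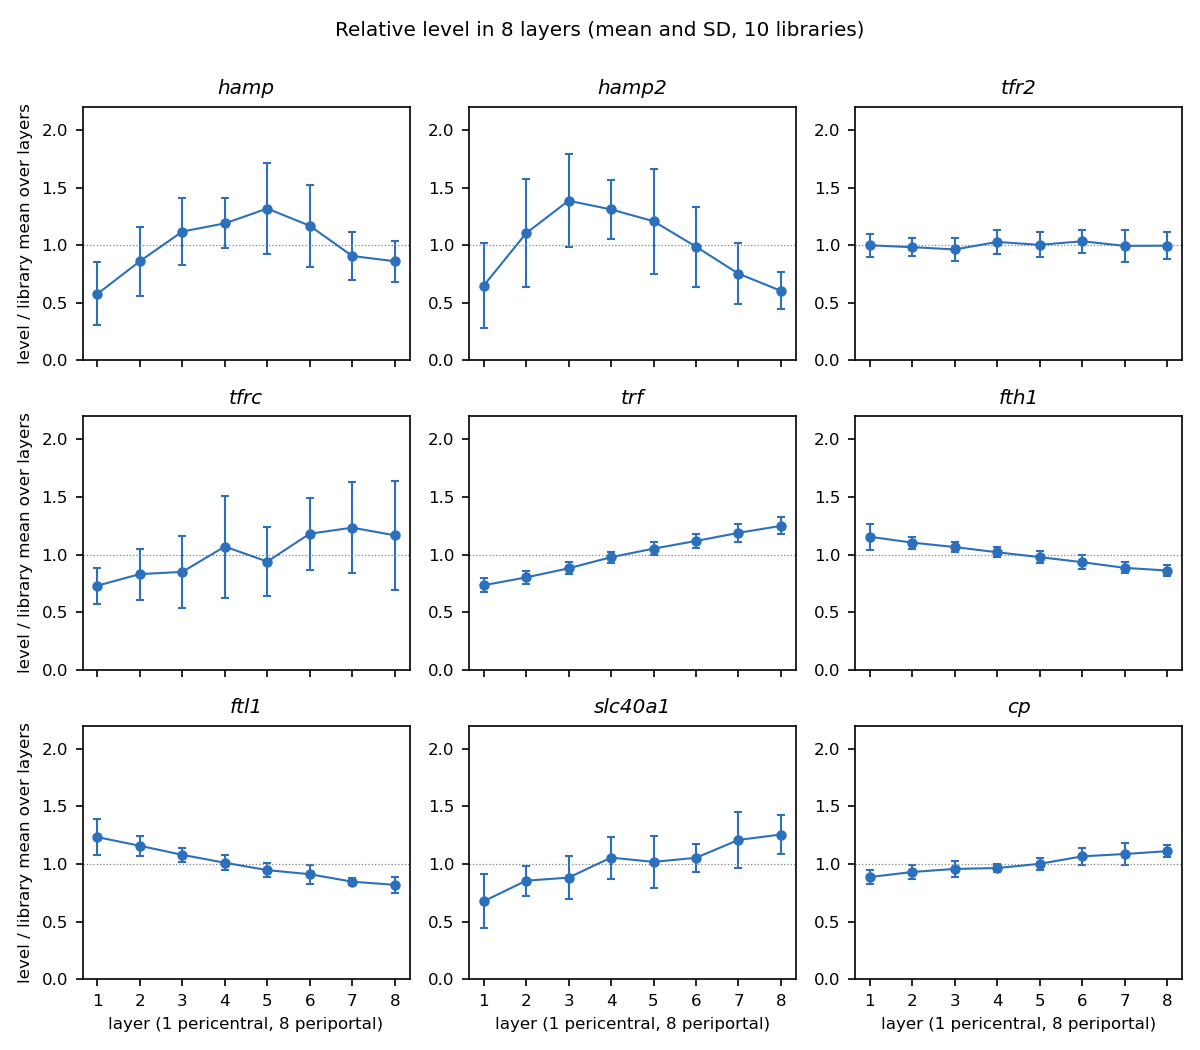
Level in layers 1 (pericentral) to 8 (periportal) divided by the mean over the layers of the same library, mean and SD over 10 libraries, for each member. Hamp and hamp2 peak in the interior (1.32 in layer 5 and 1.39 in layer 3), trf, tfrc, slc40a1 and cp are higher toward layer 8, fth1 and ftl1 toward layer 1, and tfr2 is level.

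The ferritin chains, which form the shell that stores iron, had the opposite gradient. Fth1, the heavy chain with the ferroxidase site, was measured at 3169, 5549 and 3774 CPM at ZT0, 5391 and 6117 at ZT6, 3989, 4755 and 3519 at ZT12 and 4666 and 4486 at ZT18. Its zones averaged 5096, 4534 and 4023 CPM, and the periportal zone was lower in 10 of 10 libraries, with a log2 difference of -0.23 (SE 0.04, adjusted p 5.15e-05, edgeR). Ftl1, the light chain, averaged 6213, 5186 and 4460 CPM and also had its lower level periportally in 10 of 10 libraries (-0.36, SE 0.05, adjusted p 2.67e-08).

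By library the periportal minus pericentral difference ran from -0.47 to -0.12 for fth1 and from -0.73 to -0.26 for ftl1. For both, the extreme value in the pericentral direction was that of ZT0B. Layer 1 or 2 was the highest in 8 libraries for fth1 and in 9 for ftl1, and the ratio of the highest to the lowest layer was 1.34 and 1.51.

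Over time neither chain was called (rhythm adjusted p 0.837 for fth1 and 0.905 for ftl1; ZT18 minus ZT6 -0.26, SE 0.35, and -0.35, SE 0.59, edgeR). Both ZT6 libraries of fth1 lay above both of ZT18, a separation that 62% of genes had. Ftl1 was at 3905, 6643 and 2088 CPM at ZT0, 6565 and 7757 at ZT6, 6090, 6937 and 2011 at ZT12 and 5823 and 4889 at ZT18. The 2 libraries of index column 5, ZT0C and ZT12C, held about the same low level at opposite times of day, and 3.86-fold separated the highest library from the lowest. The part of the index column in these levels was not tested. Fth1 was also lowest at ZT12 in the column 5 library. GENCODE M21 names 8 ferritin pseudogenes, of which 0 have a row in the tables, so how reads shared with them were counted is unknown.

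Ferroportin, the only known cellular iron exporter and the target of hepcidin, was measured through slc40a1 at 56.5, 63.9 and 36.6 CPM at ZT0, 109 and 96.97 at ZT6, 125, 83.6 and 98.4 at ZT12 and 86.1 and 58.2 at ZT18. All ZT6 and ZT12 libraries lay above all ZT0 libraries, which 32.8% and 18.1% of genes also showed in 1 direction or the other, and ZT18 overlapped ZT0 and ZT12. ZT12 minus ZT0 was 0.80 (SE 0.25), a 1.74-fold difference that was not called (adjusted p 0.117, edgeR). In this contrast 0 of 9 members were called by edgeR or DESeq2, against 3.44% of all genes, and 2 had an unadjusted p under 0.05, against 15.5%. Of all calls 50.7% were higher at ZT12, and 66.7% without TMM scaling, which moved the median log2 difference of all genes to 0.135. Relative to the median of all genes under each scaling, slc40a1 stood at 0.80 on the log2 scale with TMM and 0.82 without.

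The letter of a library was taken to pair ZT0 with ZT12, by the data and not by the labels. With the letter as a block slc40a1 was called (0.83, adjusted p 0.0259, edgeR). So it was with the index column as a block (0.82, adjusted p 0.0196) and without TMM scaling (0.96, adjusted p 0.0479). Letter and index column make the same pairs of ZT0 and ZT12 libraries, so these blocks are not separate pairings. In a fit of ZT0 and ZT12 alone with the letter as a block, slc40a1 was not called (0.82, adjusted p 0.0528). Within columns 3, 7 and 5, ZT12 minus ZT0 was 1.13, 0.38 and 1.40. Hamp2, at -0.87 in this contrast (adjusted p 0.168), was called with the index column as a block (-0.76, adjusted p 0.0363), but neither with the letter as a block (-0.84, adjusted p 0.115) nor in the fit of ZT0 and ZT12 alone (-0.77, adjusted p 0.0737, edgeR). Its differences within columns 3, 7 and 5 were -1.02, -0.19 and -0.67. The rhythm of slc40a1 (amplitude 0.46, peak at ZT10.1) had an adjusted p of 0.151, and 0.0362 with the letter as a block.

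Across the zones slc40a1 averaged 64.5, 81.5 and 96.7 CPM, a difference of 0.65 (SE 0.08, adjusted p 3.1e-09, edgeR), and was higher periportally in 9 of 10 libraries. By CPM without TMM scaling ZT18B was the exception, with 59.9, 57.7 and 57.2 CPM. Macrophage markers, whose cells express slc40a1 too, summed to 6.23 CPM pericentrally and 6.33 CPM periportally. Endothelial markers summed to 12.8 and 8.05 CPM, stellate markers to 8.63 and 7.08 CPM, and cholangiocyte markers to 4.65 and 18.5 CPM. Whether RNA of other cell types adds to the slc40a1 difference was not tested.

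**Figure D5:**
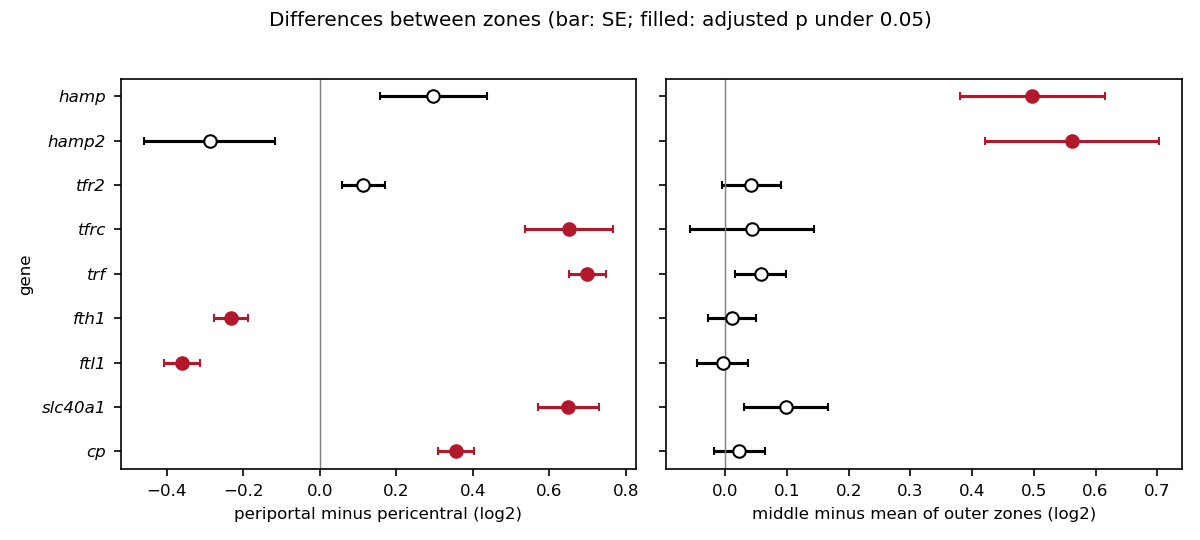
Estimated log2 differences of the 9 members between the periportal and the pericentral zone (left) and between the middle and the mean of the outer zones (right), with the SE as a bar and filled points where the edgeR adjusted p is under 0.05. On the left 6 members are filled, with trf the largest (0.70) and ftl1 the lowest (-0.36); on the right hamp (0.50) and hamp2 (0.56) are filled.

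Other iron genes were followed in a list of 62, of which 57 had a row and 49 passed the CPM minimum. Between the outer zones 16 of 49 were called, 10 higher periportally and 6 lower, against 27.1% of all genes. The median estimate of the list was 0.00, near the -0.01 of all genes tested. Genes for the uptake of iron and of haem were called in 9 of 11 cases, 8 of them higher periportally, with a median of 0.48.

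The largest were steap2 (2.18, SE 0.23; 3.23 CPM pericentrally), a metalloreductase, hpx (1.52, SE 0.07), whose product hemopexin carries free haem in plasma to hepatocytes, and steap3 (0.85, SE 0.21), an endosomal ferrireductase. The single uptake gene that was lower periportally, named here after its value was seen, was slc48a1 (-0.31, SE 0.11), a haem transporter. The largest differences in the pericentral direction were those of blvrb, a biliverdin reductase (-1.44, SE 0.08), fbxl5, the iron-sensing subunit of the ligase that removes iron regulatory protein 2 (-1.09, SE 0.14), and abcg2, an exporter that accepts porphyrins (-0.79, SE 0.09). Of 19 genes of hepcidin control, 2 were called, both higher periportally, and of 7 storage genes 1.

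Each test between times called 2 or 3 genes of the list. The rhythm test called 2 of 49 (4.08%, against 5.14% of all genes), both among the 19 of hepcidin control: hfe2, which encodes the BMP co-receptor hemojuvelin (amplitude 0.62, peak ZT21.2, adjusted p 0.0354), and atoh8, a transcription factor that BMP signalling induces in hepatocytes (0.89, peak ZT5.37). Hfe2 had 57.5 ± 15.8, 43.1 ± 2.52, 32.7 ± 0.881 and 72.1 ± 5.08 CPM at ZT0, ZT6, ZT12 and ZT18, and atoh8 9.99 ± 3.01, 17.3 ± 8.60, 8.79 ± 0.473 and 4.90 ± 0.699 (SD, n = 3, 2, 3 and 2). The hfe2 call was made in 11 of 22 settings and that of atoh8 in 13 of 21.

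From ZT0 to ZT12, 2 of 49 were called (4.08%, against 3.44% of all genes): il6ra, the receptor for interleukin 6, rose 3.08-fold (1.62, SE 0.29) and hfe2 fell by 0.95 (SE 0.20). These calls were made in 22 and 18 of 23 settings, and with the index column as a block 4 of the 49 were called. From ZT6 to ZT18, 3 of 49 were called (6.12%, against 3.79%): lcn2, a siderophore-binding protein, fell by 2.60 (SE 0.65), atoh8 fell by 1.76 (SE 0.38) and hmox2, the constitutive haem oxygenase, fell by 1.23 (SE 0.26). The lcn2 levels were low, at 7.21 and 1.15 CPM, and its call (adjusted p 0.0419, edgeR) was made in 11 of 19 settings, against 15 of 19 for atoh8 and 15 of 20 for hmox2. Of the 49 genes edgeR called 0 in the middle zone, against 0.663% of all genes, with 5 at an unadjusted p under 0.05, and 0 in the test of rhythm by zone, against 0.0562%, with 2. At these shares a list of this length need hold no call. DESeq2 called 0 in both, with 4 and 1, but gave 40 of the 49 no adjusted p in the first.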

How the data were processed

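The deposited tables give UMI counts per gene and cell, and the values are whole numbers with a different total in each cell, so they were taken as raw counts. Per the submitters' processing notes, Cell Ranger was used and the builds mm10 and hg19 are named, with no role given for either; its version, the gene models and how cells were chosen are not given in the sources used here. The kit was the Chromium 3' kit, version 2, per the labels. Cell columns carry running numbers in place of barcodes, so barcodes shared between libraries could not be counted. No doublet caller was run and no cell was removed as a doublet; whether the submitters removed any is not given in the sources used here. As 1 alternative, the top 5% of each library's cells by UMI total, where doublets would be most frequent, were dropped, and the number of members called stayed the same in each of the 6 tests. The median cell held 1588 to 2662 UMIs. No intervals are given for the levels and no floor was applied to them. The highest adgre1 and timd4 values, 0.203 and 0.175 CPM, are 1 UMI each. PCR and counting error are part of the spread between libraries.

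Counts were summed per library, and per library and zone, and tested with edgeR 4.0.16 (R 4.3.3; glmQLFit, glmQLFTest, TMM factors 0.888 to 1.14, genes of at least 3 CPM, Benjamini-Hochberg, threshold 0.05). The rhythm test asks whether a wave of 24 h (cosine and sine terms, 2 df) improves the fit over all 10 libraries; its amplitude is the log2 distance from mean to peak; contrasts between times used 1 mean per time. Zones are 3 equal parts of a library's cells by the mean z-score of 8 periportal (Cyp2f2, Ass1, Asl, Hal, Ctsc, Hsd17b13, Pigr, Ftcd) minus 8 pericentral landmarks (Cyp2e1, Oat, Gulo, Mgst1, Aldh1a1, Lect2, Cyp1a2, Rgn), tested with a term for each library; counts of calls exclude landmarks. Scores from odd and even landmarks correlated within libraries with r of 0.683 to 0.847. Library-level zone differences use log2(CPM + 1) without TMM scaling, so their signs near 0 depend on that choice. SDs are over libraries. The fits were also run on simulated counts, drawn independently and so without the pairing of ZT0 and ZT12 described below. The outcome is not given here and is not used for the results. DESeq2 1.42.0, other scalings, filters, cell sets, landmarks and left-out libraries were alternatives.

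All 9 members are given in every test. Of the other iron genes, counts are given by test and the 3 called genes with the largest effect in each direction are named. Members, lists and tests were chosen with earlier results of these data known. Libraries of a time were not copies of each other (chi-square of their counts per degree of freedom 5.76 to 68.8). For pairing, library deviations from group means were correlated. The 3 pairs of ZT0 and ZT12 with the same letter had r of 0.239 to 0.485 and the 6 pairs with other letters -0.325 to -0.106. Deviations within a group cancel, so the negative values follow from the positive ones. The letter was taken to pair these 2 times, by the data and not by the labels. Libraries of these times with the same letter also share their index column, so letter and column cannot be told apart here. Over all times 4 of 13 same-letter pairs exceeded 0.1. Of the columns of values, 0 were left unused.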

Additional observations from a re-analysis of the deposited data

Results flagged for a closer look

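Several differences between zones had 1 sign in every library of 1 time and the opposite sign in every library of another. These contrasts of signs were not tested singly; the 4-df test of rhythm by zone called none of the 9 members. Periportal minus pericentral (log2 of CPM + 1) of hamp averaged 0.565 ± 1.11 at ZT0 (n = 3), 0.619 at ZT6, where both libraries were positive, 0.234 ± 0.644 at ZT12 (n = 3) and -0.506 at ZT18, where both were negative; only ZT0 and ZT12 held libraries of both signs. Tfr2 stood at 0.113 in the same difference at ZT0, with all 3 libraries positive, and at -0.128 at ZT18, with both negative, 1 of them at -0.00067. These values are without TMM scaling. Without it the median estimate of all genes was -0.105 and that of tfr2 0.015, against 0.114 for tfr2 with TMM (edgeR). Signs close to 0 therefore depend on the scaling. No share of all genes with such opposite signs is given. Middle minus outer zones was 0.0834 for fth1 at ZT6 and -0.0823 at ZT18, and for slc40a1 0.133 at ZT0 and -0.192 at ZT6.

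One library lay apart from the other 9 within a zone difference. Tfrc was lower periportally in ZT12A (-0.105), against 0.504 to 1.01 in the other libraries, by a gap test that picks about 1 in 20 groups by chance. ZT12A has the fewest cells, 710, and 91 tfrc UMIs.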

How the results depend on the processing

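Across single members, no alternative turned the sign of a value that it called. Hamp2 from ZT6 to ZT18 and the 6 calls between the outer zones were made in every alternative run. No run from ZT6 to ZT18 could have index column as a block. The hepcidin calls in the middle zone were not made in every run. The library letter as a replicate block was taken from these data to pair ZT0 with ZT12. With this block, all genes called numbered 749 in the rhythm test (458 without), 504 for ZT12 minus ZT0 (306) and 730 for ZT18 minus ZT6 (338). Members called were 2 for rhythm (hamp2 and slc40a1) and 1 for ZT12 minus ZT0 (slc40a1). No other member's call changed. With index column as a block, 767 genes and 2 members were called for ZT12 minus ZT0 and 3 members for rhythm. With that block the rhythm rests on ZT0, ZT6 and ZT12 alone. The peak of rhythms that were not called moved by over 6 h for tfr2 (amplitude 0.12) and trf (0.40).

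All genes called in the rhythm test were 792 by DESeq2, 710 without a CPM minimum (2 members), 283 from 20 CPM, 231 without both ZT18 libraries and 264 in cells of at least 3000 UMIs. For ZT12 minus ZT0 there were 469 without a minimum, 187 in the deeper cells and 147 without ZT0C and ZT12C, and 1 member without TMM. For ZT18 minus ZT6 there were 595, 199 from 20 CPM, 99 in the deeper cells and 618 without ZT0A and ZT12A. For periportal minus pericentral the deeper cells gave 1282 in place of 2410. The middle zone gave 31 by DESeq2 with 0 members (hamp at adjusted p 0.054, none given for hamp2), 127 without a minimum, 37 in the deeper cells, 133 with 5 parts, 37 with odd landmarks (0 members) and 27 with even ones (1 member), and 0 members from 20 CPM. Rhythm by zone gave 12 without TMM, 2 by DESeq2, 69 without a minimum (2 members), 0 from 20 CPM, 0 without both ZT18 libraries, 39 in the deeper cells (1 member), 3 with even landmarks and 10 with 5 parts, against 5. The cause of these shifts was not tested.

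Leaving out 1 library at a time, the rhythm test called 228 to 465 genes, ZT18 minus ZT6 50 to 494 (lowest without ZT6A) with 1 to 2 members, the middle zone 30 to 97 (lowest without ZT6A, highest without ZT0C) with 0 to 2 members, and rhythm by zone 0 to 50 (without ZT18B and without ZT0C) with 0 to 2 members. Values that were not called and turned sign, or moved their peak, ran as follows. Rhythm amplitudes ran from 0.34 to 0.87 for hamp and 0.0472 to 0.177 for trf. ZT12 minus ZT0 ran from -1.62 to 0.55 for hamp, -0.0459 to 0.191 for tfr2, -0.36 to 0.15 for trf, -0.33 to 0.10 for fth1 and -0.22 to 0.59 for ftl1. The middle difference ran from -0.0393 to 0.134 for tfrc, -0.0114 to 0.0187 for fth1 and -0.0258 to 0.0112 for ftl1. Without ZT0A and ZT12A, hamp had a rhythm amplitude of 0.42 and ZT12 minus ZT0 of 0.69, and ftl1 -0.0524; without TMM, trf had 0.0355 in that contrast and fth1 -0.00093 in the middle. Hamp2 between the outer zones was 0.0185 with 5 parts. In the middle, tfr2 was -0.00904 with even landmarks. Without both ZT18 libraries tfrc was -0.0191 and ftl1 0.0291 there, ftl1 was 0.00504 without the 5% of cells with the most UMIs and 0.0191 in the deeper cells, and cp was -0.0271 in the deeper cells, -0.0141 with odd landmarks and -0.0020 with 5 parts. Tfrc at ZT6 rests on 28 and 29 UMIs, and hamp2 at ZT18 on 27 to 70 UMIs per zone, so depth limits both.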
